A study of Mus musculus with 12 samples.

Results

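The lysosome genes described here are 34 transcripts measured in cultured mouse keratinocytes, out of 22180 genes with a probe set of their own on the array. They were chosen by name as the enzymes, membrane proteins and proton pump of the lysosome together with a pair of transcription factors of lysosome genes, and each is read from the probe set with the highest mean over all arrays. All 34 were measured. The rule uses no measured change, but the list was chosen with earlier results of these data known. The arrays came from 4 groups of 3, all on an Atg7 f/f background, in which both copies of Atg7 are flanked by loxP sites. The wt groups were K14::Cre -, so their Atg7 stays intact. The KO groups were K14::Cre +, with Cre driven by the keratin 14 promoter of basal keratinocytes, which removes Atg7 in those cells. Within each genotype, cells were either sham treated or given 20 µM paraquat, a redox-cycling herbicide that generates superoxide inside cells, and RNA was taken after 48 h. The labels call the 3 arrays of a group biological triplicates without tying them to animals, and the age of the mice is not given in the sources used here, so p-values measure the spread between cultures.

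Lysosomes are acidic organelles in which hydrolases take apart proteins, glycans and lipids delivered by endocytosis and autophagy. The vacuolar ATPase, a proton pump with a membrane sector (V0) and an ATP-hydrolysing sector (V1), keeps the lumen acidic, and heavily glycosylated proteins such as Lamp1 and Lamp2 line the limiting membrane. Atg7 is an enzyme needed to attach LC3 to lipid, a step in the making of autophagosomes, which fuse with lysosomes. Many lysosome genes carry the sequence CACGTG near their start, the core of the element bound by the transcription factors Tfeb and Tfe3. In skin, cathepsins and lipid hydrolases of lysosomes and lamellar bodies take part in differentiation and barrier formation.

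Signals are RMA values on a linear scale, and changes are differences of log2 signal between group means, given ± the standard error (SE). A gene is counted as changed where limma's moderated test, adjusted by Benjamini-Hochberg over all 22180 genes, gave an adjusted p under 0.05. The array medians lay between 42 and 45, which places a signal in that range at the middle of all probe sets. Atg7 read 286 to 457 in the 6 wt arrays and 96 to 148 in the 6 KO arrays, and was lower in KO sham than in wt sham cultures by 1.55 ± 0.13 on the log2 scale (adjusted p = 2.8e-05). All 7 keratinocyte markers measured had group means above the array medians, with Krt14 at 8933 to 11102 over the 12 arrays. Of 11 leukocyte markers 8 had a mean over the 12 arrays below the array medians. Of these, Csf1r read 45, 40 and 46 and Itgam 41, 43 and 42 in wt paraquat arrays. The markers of all cell types are described at the end. Wt sham 2 and KO paraquat 3 stood apart from the other arrays of their groups in a principal component analysis, and the counts of lysosome genes changed without both were 18 for the wt response, 17 for the KO response, 3 for KO against wt sham, 0 for KO against wt paraquat and 1 for the difference between responses. Each sample is bulk RNA, in which fewer cells of a type and less RNA per cell cannot be told apart.

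Paraquat raised some lysosome genes and lowered others, mostly the same ones in both genotypes. In wt cells 18 of the 34 passed the threshold, 11 higher and 7 lower, against 29.2% of all genes (14.9% higher and 14.3% lower). In KO cells 19 passed, 13 higher and 6 lower, against 27.1% of all genes (14.5% higher and 12.6% lower). The gap to the background is narrower among brighter genes. Of the 12961 genes whose signal exceeded the overall median in 3 or more arrays, 50.7% changed in wt cells and 47.6% in KO cells. All but Ctss and Tfeb of the lysosome genes are among them, and 62.5% and 65.6% of those 32 changed. The median change of the 34 genes was near 0, at 0.035 in wt and 0.14 in KO cells, beside 0.0088 and 0.0079 for all genes. Of the 34 changes, 18 were above 0 and 16 below in wt cells, and 21 above and 13 below in KO cells. Arrays of sham and paraquat cells did not overlap for 12 genes that were higher and 12 that were lower in wt cells (19.2% and 18.3% of all genes), and for 15 and 9 in KO cells (20% and 17.3%).

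The sets behind these counts overlapped. Of the 34 genes, 16 changed in both genotypes, 10 higher in both and 6 lower in both, and 0 changed in opposite directions. Over all genes 19.5% changed in both, 10.5% higher and 8.8% lower, and 0.185% in opposite directions. Ctsd and Lipa passed in wt cells only, Ctsf, Naglu and Tfe3 in KO cells only, and 13 passed in neither. Across the 34 genes the wt and KO responses, which share no array, correlated with Pearson's r = 0.947 and Spearman's rho = 0.865, against 0.827 and 0.656 across all genes. These are descriptions across genes measured on arrays that were normalised together, and genes are not independent replicates.

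**Figure D1:**
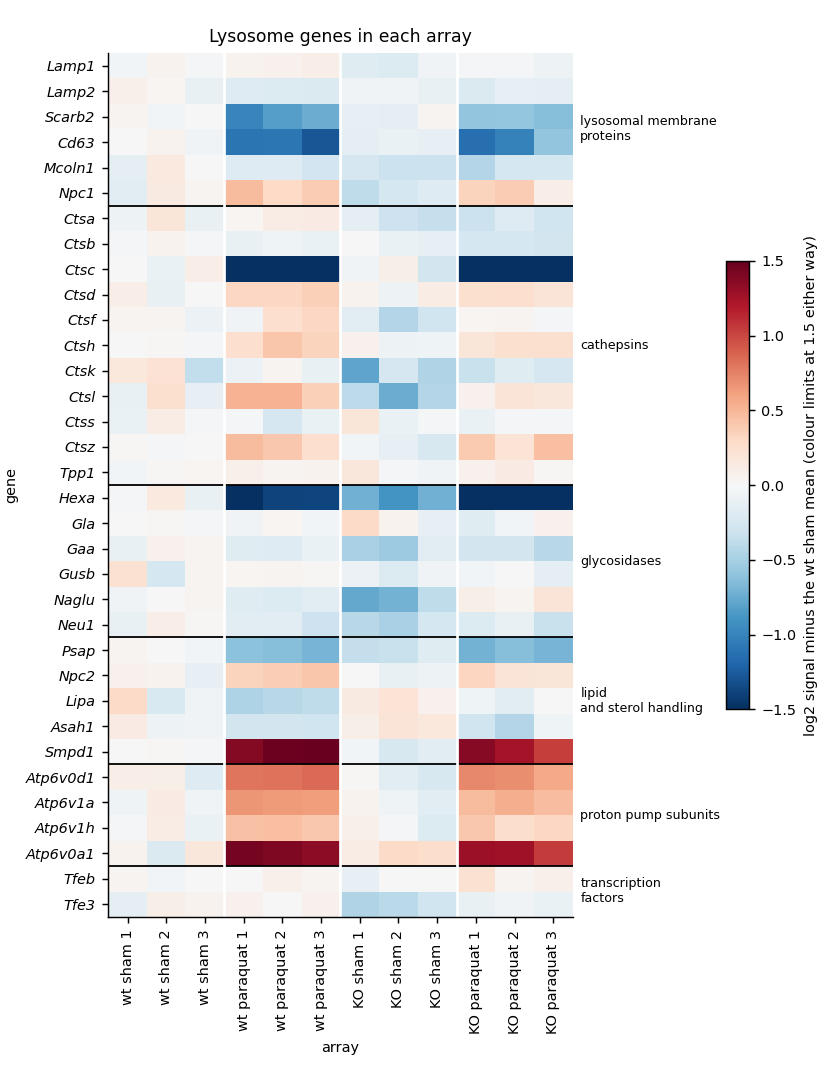
Signal of each of the 34 lysosome genes (rows, grouped by role) in each of the 12 arrays (columns), as log2 signal minus the mean of the 3 wt sham arrays. The proton pump subunits and Smpd1 are red in all 6 paraquat arrays, while Ctsc, Hexa, Cd63, Scarb2 and Psap are blue in all 6.

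**Figure D2:**
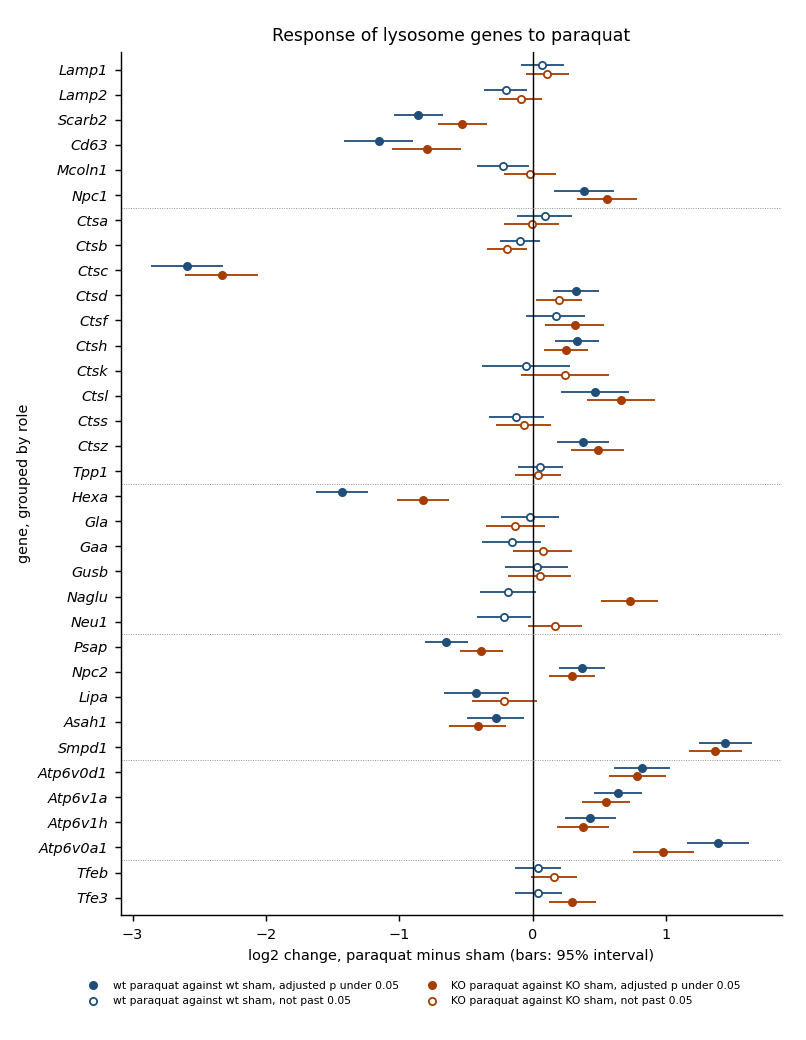
Log2 change from sham to paraquat (horizontal axis) of each lysosome gene (vertical axis) in wt (blue) and KO (brown) cells, with 95% intervals as bars. Filled points passed an adjusted p of 0.05, 18 in wt and 19 in KO cells. Ctsc lies far to the left of all others, and Smpd1 and Atp6v0a1 farthest to the right in both genotypes.

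The promoter sequences of the members the results turn on are shown for the CACGTG element, with every copy in capitals. RefSeq windows (GRCm38.p6) were found for 29 of the 34 genes, and the 250 bases before the start were searched; the element reads the same on both strands. It was present in 10 of the 29 genes (34.5%), namely Atp6v1a, Ctsa, Ctsd, Ctsf, Ctsl, Gaa, Gla, Lamp1, Mcoln1 and Naglu, against 6.86% of 27025 genes with a window. The longer TCACGTG, searched on both strands and always containing CACGTG, was in 8 of 29 (27.6%) against 3.58%. Median GC content was 56.4% in the member windows and 52.4% in all windows, a difference that was not corrected for. Each sequence below runs 5′ to 3′ on the gene's own strand and ends at the base before the start. Lamp1 is shown because it holds 4 copies, Ctsd because it holds 2, Atp6v1a as a pump subunit that rose, and Naglu as the gene whose response differed most between genotypes. Smpd1 and Ctsc are shown as the genes with the largest rise and the largest fall, and hold 0 copies.
Lamp1, chr8:13158911-13159160, plus strand: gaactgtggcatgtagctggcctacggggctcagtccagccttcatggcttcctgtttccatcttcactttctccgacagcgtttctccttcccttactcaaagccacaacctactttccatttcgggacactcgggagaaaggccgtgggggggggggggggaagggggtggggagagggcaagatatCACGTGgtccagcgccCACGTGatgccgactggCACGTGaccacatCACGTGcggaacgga
Ctsd, chr7:142387828-142388077, minus strand: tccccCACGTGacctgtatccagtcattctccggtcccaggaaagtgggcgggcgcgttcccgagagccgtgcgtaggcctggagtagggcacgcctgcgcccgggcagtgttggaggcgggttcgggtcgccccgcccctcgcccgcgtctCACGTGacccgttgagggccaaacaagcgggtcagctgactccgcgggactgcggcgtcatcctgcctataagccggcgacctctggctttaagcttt
Atp6v1a, chr16:44139260-44139509, minus strand: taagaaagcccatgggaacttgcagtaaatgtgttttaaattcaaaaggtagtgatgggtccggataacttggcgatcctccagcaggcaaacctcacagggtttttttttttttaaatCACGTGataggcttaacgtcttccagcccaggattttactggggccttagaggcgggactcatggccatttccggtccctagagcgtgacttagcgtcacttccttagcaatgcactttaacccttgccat
Naglu, chr11:101069844-101070093, plus strand: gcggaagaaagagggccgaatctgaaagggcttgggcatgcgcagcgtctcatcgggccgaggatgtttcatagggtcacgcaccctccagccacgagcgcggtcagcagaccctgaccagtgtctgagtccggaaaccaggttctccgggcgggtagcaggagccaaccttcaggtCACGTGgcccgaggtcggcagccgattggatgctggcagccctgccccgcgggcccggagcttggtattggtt
Smpd1, chr7:105554110-105554359, plus strand: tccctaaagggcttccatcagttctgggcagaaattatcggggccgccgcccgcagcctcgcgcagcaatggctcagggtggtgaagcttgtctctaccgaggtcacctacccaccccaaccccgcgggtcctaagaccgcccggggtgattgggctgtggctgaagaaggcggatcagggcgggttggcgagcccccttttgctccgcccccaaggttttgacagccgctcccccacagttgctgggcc
Ctsc, chr7:88277835-88278084, plus strand: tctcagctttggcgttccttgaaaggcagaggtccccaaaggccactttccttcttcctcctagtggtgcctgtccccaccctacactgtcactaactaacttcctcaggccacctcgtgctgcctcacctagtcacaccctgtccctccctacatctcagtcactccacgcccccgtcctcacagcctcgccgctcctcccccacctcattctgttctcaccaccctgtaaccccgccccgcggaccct

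Set beside the responses, 3 of the 10 genes with CACGTG were higher and 0 lower after paraquat in wt cells, and 4 were higher and 0 lower in KO cells. Of the 19 genes whose windows lack it, 5 were higher and 6 lower in wt cells, and 6 were higher and 5 lower in KO cells. Of the 5 genes without a window 3 were higher and 1 lower in each genotype. Over all genes 14.9% were higher and 14.3% lower in wt cells, and 14.5% and 12.6% in KO cells. The counts are small, and whether the sets differ was not tested. A match in these windows is a description of the sequence and not evidence of binding.

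The 4 proton pump subunits rose with paraquat in both genotypes. Atp6v0a1 (probe set 17256473), the membrane-sector subunit that helps place the pump in its compartment, read 371, 308 and 405 in wt sham, 974, 946 and 908 in wt paraquat, 388, 437 and 432 in KO sham and 874, 868 and 741 in KO paraquat arrays. The sham and paraquat arrays did not overlap in either genotype. Its change was 1.39 ± 0.11 in wt cells (2.62-fold, adjusted p = 4.52e-07) and 0.98 ± 0.11 in KO cells (1.97-fold, adjusted p = 1.59e-05). The difference between these responses was -0.41 ± 0.15 and did not pass the threshold (adjusted p = 0.196).

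Atp6v0d1, a membrane-sector subunit that joins the proton-carrying ring to the rotor, read 1004, 992 and 817 in wt sham, 1627, 1640 and 1676 in wt paraquat, 944, 840 and 791 in KO sham and 1544, 1509 and 1379 in KO paraquat arrays. All paraquat arrays were above all sham arrays, with changes of 0.82 ± 0.10 in wt (adjusted p = 2.41e-05) and 0.79 ± 0.10 in KO cells (adjusted p = 4.63e-05). Atp6v1a, the catalytic subunit of the V1 sector, read 1593, 1817 and 1602 in wt sham, 2635, 2596 and 2577 in wt paraquat, 1734, 1601 and 1488 in KO sham and 2313, 2432 and 2296 in KO paraquat arrays. It too was higher in every paraquat array, by 0.64 ± 0.08 in wt (adjusted p = 4.69e-05) and 0.55 ± 0.08 in KO cells (adjusted p = 0.000227), and its promoter above holds 1 copy of the element. Atp6v1h, a regulatory subunit of the V1 sector, ranged from 259 to 409 and rose by 0.43 ± 0.09 and 0.38 ± 0.09. None of the 4 subunits differed between KO and wt cells in the sham or the paraquat groups beyond the threshold, with smallest adjusted p of 0.245 and 0.55.

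**Figure D3:**
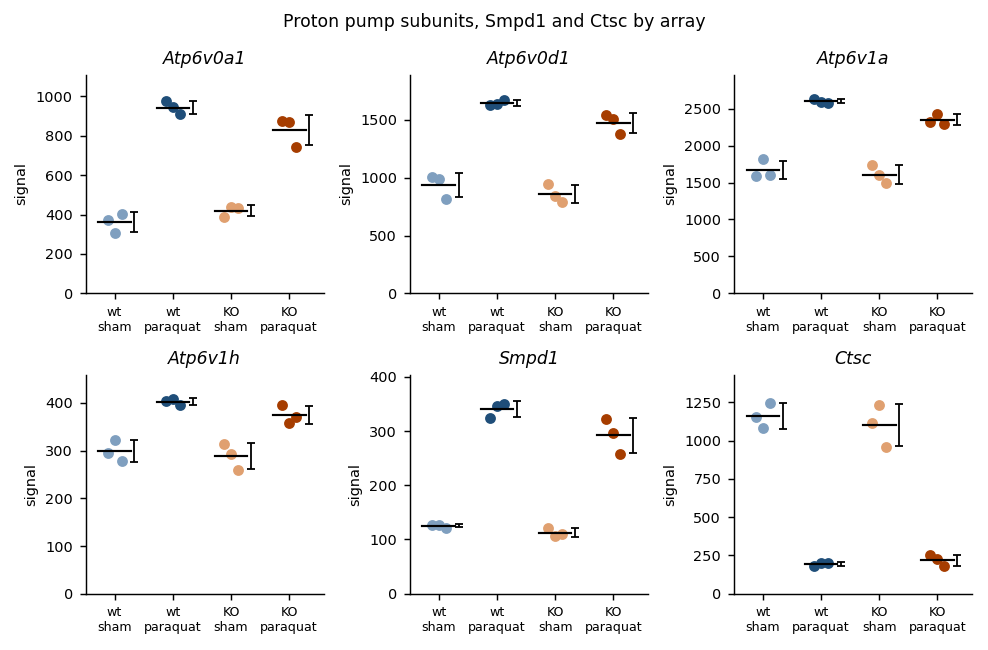
Signal (vertical axis, linear RMA scale from 0) of Atp6v0a1, Atp6v0d1, Atp6v1a, Atp6v1h, Smpd1 and Ctsc in the 3 arrays of each group, with the group mean as a line and its SD as the bar to the right. The pump subunits and Smpd1 are higher, and Ctsc lower, in every paraquat array than in any sham array of the same genotype.

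Among the cathepsins and the other proteases listed with them, 5 of 11 changed in each genotype, 4 higher and 1 lower. Ctsc (probe set 17480018), or dipeptidyl peptidase 1, which activates serine proteases of leukocyte granules by trimming their N-terminus, was the gene with the largest change of the 34. It read 1153, 1084 and 1247 in wt sham, 179, 200 and 199 in wt paraquat, 1117, 1232 and 956 in KO sham and 253, 225 and 181 in KO paraquat arrays. Every paraquat array lay far below every sham array. It fell by 2.59 ± 0.13 on the log2 scale in wt cells (6.03-fold, adjusted p = 1.11e-08) and fell by 2.33 ± 0.13 in KO cells (5.04-fold, adjusted p = 7.61e-08), and the genotypes did not differ beyond the threshold under either treatment.

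Ctsl, an endopeptidase that in epidermis processes proteins during keratinocyte differentiation, read 2530, 3246 and 2514 in wt sham, 3943, 3937 and 3504 in wt paraquat, 2097, 1643 and 2026 in KO sham and 2869, 3135 and 3090 in KO paraquat arrays. It rose in both genotypes, by 0.47 ± 0.12 (adjusted p = 0.00831) and 0.66 ± 0.12 (adjusted p = 0.000803), and all KO arrays lay below all wt arrays of the same treatment. Ctsd, the aspartic protease that also has a role in breaking down epidermal proteins, read 5455, 4736 and 5142 in wt sham, 6324, 6312 and 6519 in wt paraquat, 5275, 4849 and 5531 in KO sham and 6014, 6093 and 5829 in KO paraquat arrays. Its rise of 0.32 ± 0.08 passed in wt cells (adjusted p = 0.00725), while 0.20 ± 0.08 in KO cells did not (adjusted p = 0.0891), although the arrays did not overlap in either. The difference between these Ctsd responses was not past the threshold either (adjusted p = 0.67).

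Ctsh, an aminopeptidase, and Ctsz, a carboxypeptidase, rose in both genotypes, Ctsh by 0.33 ± 0.08 and 0.25 ± 0.08 and Ctsz by 0.38 ± 0.09 and 0.49 ± 0.09. Ctsf, a cysteine protease, passed in KO cells (0.32 ± 0.10, adjusted p = 0.0364) and had 0.17 ± 0.10 in wt cells. The KO call of Ctsf was lost without KO sham 2 or 3 or any KO paraquat array (adjusted p of 0.0639 to 0.143), and that of Ctsh without KO sham 2 or 3 or KO paraquat 2 or 3 (0.0663 to 0.0777). Ctsb, a cysteine protease with endopeptidase and carboxypeptidase activity, read 6192, 6513 and 6186 in wt sham, 5832, 6030 and 5862 in wt paraquat, 6250, 5885 and 5791 in KO sham and 5242, 5245 and 5222 in KO paraquat arrays. Its paraquat arrays lay below the sham arrays in both genotypes, but -0.09 ± 0.07 and -0.19 ± 0.07 did not pass (adjusted p = 0.393 and 0.0605). Ctsa, a carboxypeptidase that shields neuraminidase, Tpp1, a tripeptidyl peptidase, Ctsk, a collagen-degrading protease of osteoclasts, and Ctss, a protease of antigen-presenting cells, passed in no comparison. Ctss read 17 to 23 and Ctsk 27 to 54, at or below the level of the array medians apart from the highest Ctsk arrays.

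In the lipid and sterol group all 5 genes changed in wt cells and 4 in KO cells, in opposite directions within the group. Smpd1 (probe set 17481388), the acid sphingomyelinase that makes ceramide from sphingomyelin, read 126, 127 and 122 in wt sham, 324, 347 and 350 in wt paraquat, 121, 106 and 111 in KO sham and 322, 297 and 257 in KO paraquat arrays. No paraquat array overlapped a sham array. The change was 1.44 ± 0.09 in wt (2.72-fold, adjusted p = 8.49e-08) and 1.37 ± 0.09 in KO cells (2.58-fold, adjusted p = 3.07e-07). Its other probe set, with lower signal, also rose, by 0.80 (adjusted p = 0.000762) and 0.72 (adjusted p = 0.00204).

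Psap, the precursor of the saposins that present sphingolipids to their hydrolases, moved the other way. It read 1949, 1892 and 1840 in wt sham, 1234, 1220 and 1171 in wt paraquat, 1475, 1501 and 1663 in KO sham and 1162, 1220 and 1168 in KO paraquat arrays. It fell by 0.65 ± 0.07 in wt cells (adjusted p = 1.79e-05) and fell by 0.38 ± 0.07 in KO cells (adjusted p = 0.0016). Asah1, the acid ceramidase, fell by 0.28 ± 0.10 in wt (adjusted p = 0.0487) and fell by 0.41 ± 0.10 in KO cells (adjusted p = 0.00608). Lipa, the acid lipase that hydrolyses cholesteryl esters and triglycerides, fell by 0.42 ± 0.11 in wt cells (adjusted p = 0.0112) and had -0.21 ± 0.11 in KO cells (adjusted p = 0.199). Npc2, which hands cholesterol to Npc1 at the membrane, rose by 0.37 ± 0.08 and 0.29 ± 0.08. Leaving out 1 array ended the wt call of Asah1 in 9 of 12 cases (adjusted p up to 0.177, without wt sham 1) and the KO call of Npc2 without KO paraquat 1 (adjusted p = 0.0631). The Lipa change was -0.28 without wt sham 1, and its call was lost in a fit of the wt arrays alone (adjusted p = 0.0539).

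Of the 6 membrane proteins, 3 changed in each genotype, 1 higher and 2 lower. Cd63, a tetraspanin of late endosomes, lysosomes and melanosomes, read 946, 980 and 906 in wt sham, 442, 445 and 387 in wt paraquat, 859, 884 and 864 in KO sham and 430, 468 and 625 in KO paraquat arrays. It fell by 1.15 ± 0.12 in wt (adjusted p = 6.24e-06) and fell by 0.79 ± 0.12 in KO cells (adjusted p = 0.000206), with KO paraquat 3 the highest of the treated arrays. Scarb2, the receptor that carries glucocerebrosidase to lysosomes, read 801, 753 and 779 in wt sham, 391, 437 and 463 in wt paraquat, 711, 705 and 801 in KO sham and 516, 519 and 501 in KO paraquat arrays. It fell by 0.86 ± 0.08 (adjusted p = 4.36e-06) and fell by 0.53 ± 0.08 (adjusted p = 0.000367) without overlap between sham and paraquat. The difference between the wt and KO responses was not past the threshold for either Cd63 (adjusted p = 0.333) or Scarb2 (adjusted p = 0.191).

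Npc1, the cholesterol exporter of the lysosomal membrane, rose by 0.38 ± 0.10 in wt (adjusted p = 0.0126) and 0.55 ± 0.10 in KO cells (adjusted p = 0.0012). Its other probe set, which read 35 to 44, gave 0.13 and -0.12, so the rise is seen in the brighter probe set alone. The wt call was lost without wt sham 1 (adjusted p = 0.0614) or wt paraquat 1 (adjusted p = 0.0536). With the mean over both probe sets the KO change was 0.22 and its call was lost (adjusted p = 0.0936). Lamp1 read 3215, 3438 and 3258 in wt sham, 3434, 3445 and 3546 in wt paraquat, 2904, 2854 and 3174 in KO sham and 3250, 3249 and 3136 in KO paraquat arrays. Its changes with paraquat were 0.07 ± 0.07 and 0.11 ± 0.07 with overlapping arrays, for the gene with the most CACGTG copies among those shown. Lamp2 read 1952, 1896 and 1723 in wt sham, 1626, 1606 and 1601 in wt paraquat, 1794, 1792 and 1712 in KO sham and 1596, 1703 and 1686 in KO paraquat arrays. Its paraquat arrays lay below its sham arrays in both genotypes, but -0.20 ± 0.07 (adjusted p = 0.0582) and -0.09 ± 0.07 (adjusted p = 0.453) did not pass. The wt value of Lamp2 passed under 5 of 22 alternatives. Mcoln1, a calcium-permeable channel of lysosomes, had -0.22 ± 0.09 and -0.02 ± 0.09 and passed in neither.

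Among the glycosidases, 1 of 6 changed with paraquat in wt and 2 of 6 in KO cells, and this group held the genes with the largest differences between genotypes in sham cells. Hexa (probe set 17517947), the alpha subunit of the hexosaminidase that degrades GM2 ganglioside, read 352, 399 and 333 in wt sham, 124, 138 and 139 in wt paraquat, 218, 193 and 218 in KO sham and 115, 121 and 120 in KO paraquat arrays. The wt sham arrays were highest, KO sham arrays intermediate and both paraquat groups lowest, without overlap. With paraquat it fell by 1.43 ± 0.09 in wt cells (adjusted p = 7.9e-08) and fell by 0.82 ± 0.09 in KO cells (adjusted p = 1.71e-05).

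Naglu (probe set 17256502), which removes N-acetylglucosamine from heparan sulfate, read 69, 72 and 74 in wt sham, 63, 62 and 64 in wt paraquat, 42, 44 and 55 in KO sham and 76, 74 and 82 in KO paraquat arrays. KO sham arrays lay below all others, and KO paraquat arrays were at or above the highest wt sham array. The KO sham signals were close to the array medians of 42 to 45, so the gene was dim where its rise began. It rose by 0.73 ± 0.10 in KO cells (1.66-fold, adjusted p = 8.63e-05), while wt cells had -0.19 ± 0.10 (adjusted p = 0.197). Gla, the alpha-galactosidase, Gaa, the enzyme that breaks down glycogen, Gusb, the beta-glucuronidase, and Neu1, the sialidase, passed with paraquat in neither genotype.

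Without treatment, KO cells had lower signals than wt cells for 8 of the 34 genes and a higher signal for 0, against 10.2% of all genes changed (4.58% higher and 5.67% lower). Among the genes passing the brightness filter the counts were 10 lower and 0 higher of 32, against 12.1% and 9.34% of 12961, or 21.5% in all. In all, 27 of the 34 differences were below 0, with a median of -0.12 beside -0.0083 for all genes, and 15 genes had all KO sham arrays below all wt sham arrays (12.6% of all genes did) and 0 had all above (10.1%). The KO minus wt difference of Hexa was -0.78 ± 0.09 (1.72-fold, adjusted p = 0.000206), and Naglu had -0.62 ± 0.10 (1.54-fold, adjusted p = 0.00161). Gaa (-0.40 ± 0.10), Neu1 (-0.39 ± 0.09), Ctsl (-0.52 ± 0.12), Psap (-0.29 ± 0.07) and Mcoln1 (-0.30 ± 0.09) also passed, with adjusted p from 0.0132 to 0.0492, as did Tfe3. This comparison and the wt response share the wt sham arrays. Suprabasal keratinocyte markers differed alongside, 5 of 10 lower and 0 higher in KO sham cells with summed signals of 3113 to 3522 against 4128 to 4941, and their part in these differences was not tested.

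The count of 8 rests on the arrays used. It was 3 without wt sham 2, and 2 in a fit of the wt sham and KO sham arrays alone. Hexa and Naglu passed under every alternative tried, and Tfe3 under all but that last fit (adjusted p = 0.0684). Without wt sham 2 the adjusted p was 0.0552 for Ctsl, 0.0842 for Gaa, 0.0713 for Neu1, 0.0604 for Psap and 0.175 for Mcoln1. Without KO sham 2 it was 0.0599, 0.0989, 0.0732, 0.0794 and 0.129 for the same genes. Of the 10 genes with CACGTG in their window 4 were lower in KO sham cells, as were 4 of the 19 without it. Of the 5 with no window 0 were lower, and over all genes 5.67% were.

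Tfe3 and Tfeb, the transcription factors of the group, differed in how well they were measured. Tfe3 read 271, 318 and 309 in wt sham, 312, 299 and 311 in wt paraquat, 218, 226 and 242 in KO sham and 276, 289 and 278 in KO paraquat arrays. The KO sham arrays were below all others. Tfe3 was lower in KO than wt sham cells (-0.39 ± 0.08, adjusted p = 0.00853) and rose with paraquat in KO cells (0.30 ± 0.08, adjusted p = 0.0143), beside 0.04 ± 0.08 in wt cells. The rise was lost without KO sham 1 (adjusted p = 0.0502) or KO paraquat 2 (adjusted p = 0.0537). Its responses did not differ between genotypes beyond the threshold (adjusted p = 0.308). Tfeb read 36, 34 and 35 in wt sham, 35, 37 and 36 in wt paraquat, 32, 35 and 35 in KO sham and 41, 36 and 37 in KO paraquat arrays, below the array medians, so no change of it could be read. Activity of both factors is controlled largely by their movement into the nucleus, which RNA levels do not show.

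After paraquat, KO and wt cells differed for 0 of the 34 genes by limma's adjusted p, against 0.55% of all genes (0.0992% higher and 0.451% lower) and 1.76% of the brighter ones; 7 of the 34 had an unadjusted p under 0.05. The smallest adjusted p was 0.132, for Ctsa (-0.36 ± 0.09). Still, 24 of the 34 differences were below 0 with a median of -0.10, and 16 genes had all KO arrays below all wt arrays where 9.07% of all genes did. Scarb2, Naglu and Lipa had all KO paraquat arrays above all wt paraquat arrays, where 7.94% of all genes did. A p past the threshold in sham and not in paraquat cells does not show that the genotype effect differs, which the next test addresses.

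**Figure D4:**
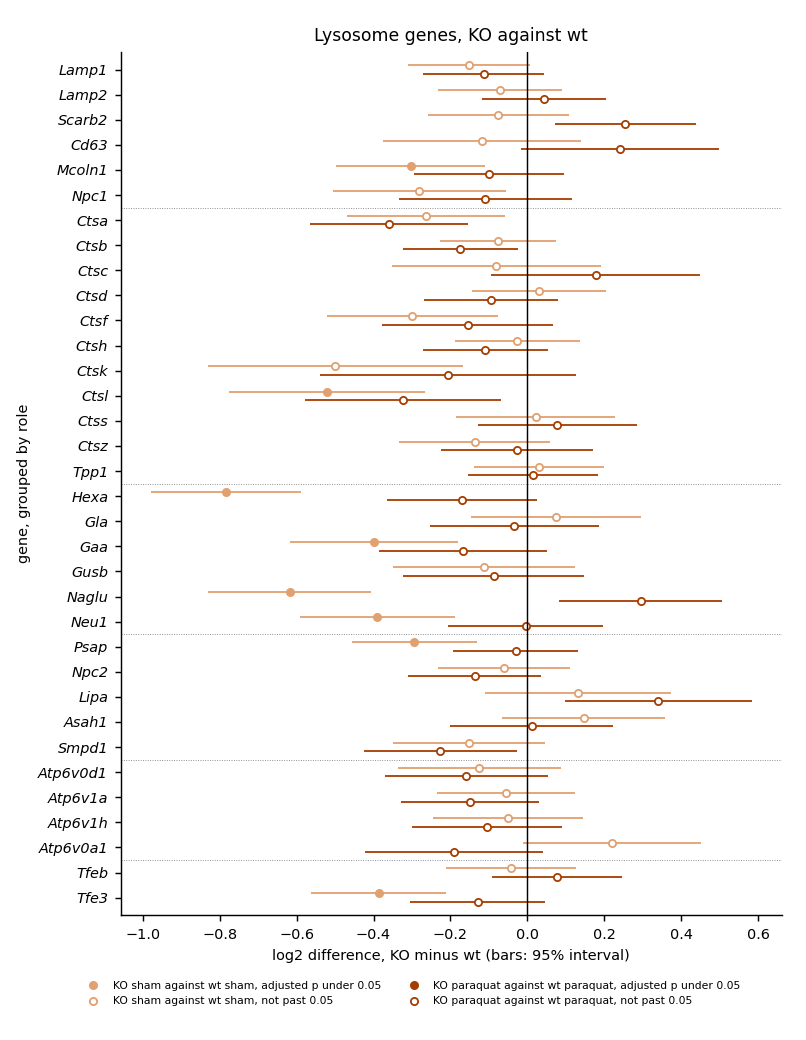
Log2 difference of KO minus wt (horizontal axis) for each lysosome gene (vertical axis) in sham (light) and paraquat (dark) cultures, with 95% intervals as bars. Filled points, all in sham cultures and all left of 0, mark the 8 genes with an adjusted p under 0.05; no gene passed in paraquat cultures.

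The KO response minus the wt response was past the threshold for 2 of the 34 genes, Naglu and Hexa, both higher, against 2.29% of all genes (1.39% higher and 0.897% lower). Among the brighter genes the share was 6.25% of 32, near the 6.9% of all 12961. Naglu had 0.91 ± 0.14 (adjusted p = 0.00444), from no passing change in wt cells to a rise in KO cells, and passed under every alternative. Its signals were low, at 42 to 82 over all arrays, with those of KO sham close to the array medians. Hexa had 0.61 ± 0.13 (adjusted p = 0.0261), a smaller fall in KO cells. This test uses the same sham arrays as KO against wt sham, with the opposite sign, so the results for these genes are not independent. The Hexa call was lost without KO sham 2 (adjusted p = 0.0631), wt paraquat 1 (0.0728), wt paraquat 2 (0.0525), KO paraquat 2 (0.0722) or KO paraquat 3 (0.0616), and without both wt sham 2 and KO paraquat 3 (0.0932). For the other 32 genes the difference did not pass, which does not show that the responses were alike.

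Further genes, 134 measured of 148 listed in 6 groups, were counted the same way. Some encode parts of the lysosome, and others act in delivery to it, in its regulation or as cathepsin inhibitors. With paraquat 36 were higher and 23 lower in wt cells (44% changed, against 29.2% of all genes), and 42 higher and 17 lower in KO cells (44%, against 27.1%), with median changes of 0.087 and 0.13 over the 134 genes beside the 0.0088 and 0.0079 of all genes. Without treatment 8 were higher and 15 lower in KO than wt cells (median -0.070; 17.2% changed, against 10.2% of all genes), and after paraquat 0 were higher and 1, Gpnmb, lower (0.746%, against 0.55%). By list, the share changed with paraquat in wt and in KO cells was 47.4% and 36.8% for pump subunits, 31.0% and 41.4% for hydrolases, 36.7% and 46.7% for membrane proteins, 52.4% and 57.1% for delivery, 50.0% and 41.7% for regulators and 63.6% and 36.4% for cathepsin inhibitors. Among the brighter genes 50.7% changed in wt and 47.6% in KO cells. There the lists, in this order, kept 18, 27, 27, 21, 21 and 7 genes. Of these 10, 10, 12, 12, 11 and 6 changed in wt cells and 7, 11, 14, 12, 11 and 4 in KO cells. Between sham groups 3, 6, 5, 5, 4 and 4 changed, against 21.5% of the brighter genes. In each comparison some lists lay above that background and some below. The 19 further pump subunits were less uniform than the 4 described above, with 6 higher and 3 lower in wt and 5 higher and 2 lower in KO cells. Atp6v1d, a rotor subunit, rose by 0.89 ± 0.10 in wt and 0.65 ± 0.10 in KO cells, and Atp6v1b2, a nucleotide-binding V1 subunit, by 0.60 ± 0.10 and 0.49 ± 0.10. Atp6v0a4, the kidney form of the subunit encoded by Atp6v0a1, read 32 to 72 and fell by 0.73 ± 0.11 in wt and fell by 0.95 ± 0.11.

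Of 29 further hydrolases, 4 rose and 5 fell in wt cells and 7 rose and 5 fell in KO cells. Aga, which cleaves asparagine-linked sugars, rose by 1.02 ± 0.08 and 0.86 ± 0.08, and Gm2a, the activator protein that Hexa needs to degrade GM2, rose by 1.52 ± 0.17 and 1.27 ± 0.17 while Hexa fell. In sham cells 5 of these hydrolases were lower in KO and 0 higher, with Scpep1 at -1.21 ± 0.12, Naaa at -0.84 ± 0.09 and Idua at -0.58 ± 0.09; without wt sham 2 and KO paraquat 3 the count was 3. The difference between responses passed for 3 of the 29 (10.3%, against 2.29% of all genes). It uses the same sham arrays with the opposite sign, so it is not independent of the sham comparison, and was 0.91 ± 0.17 for Scpep1, 1.04 ± 0.12 for Naaa and 0.56 ± 0.13 for Idua. The Idua difference was lost without any one of 10 of the 12 arrays, with adjusted p up to 0.145 over all alternatives, while those of Naaa and Scpep1 passed under all.

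Further membrane proteins (30 measured) gave 7 higher and 4 lower in wt and 11 higher and 3 lower in KO cells. Cd68, a macrophage-associated glycoprotein of lysosomes, rose by 1.64 ± 0.09 in wt and 1.05 ± 0.09 in KO cells. Abcb9, a peptide transporter, rose by 1.18 ± 0.13 and 1.06 ± 0.13. Of 21 genes for delivery to lysosomes, 5 rose and 6 fell in wt and 8 rose and 4 fell in KO cells. The tethering factor Vps33a was up by 0.75 ± 0.10 and 0.73 ± 0.10 and the adaptor Plekhm1 by 1.24 ± 0.12 and 1.01 ± 0.12. Mean signals went down for M6pr, from 1379 to 958 in wt and 1341 to 1100 in KO cells. Those of Vps16 went from 399 to 252 and from 345 to 242.

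The 24 regulators of lysosome genes held 8 that rose and 4 that fell in wt and 8 that rose and 2 that fell in KO cells. Fnip2, a partner of folliculin, rose by 1.06 ± 0.12 and 0.92 ± 0.12, and the Rag GTPase Rraga by 0.51 ± 0.08 and 0.56 ± 0.08. The mean signal of Mtor went down, from 326 to 243 in wt and from 310 to 231 in KO cells. Mitf, a transcription factor of the same family as Tfeb and Tfe3, rose by 0.71 ± 0.10 and 0.37 ± 0.10, the KO call being lost without KO sham 2 or KO paraquat 1 (adjusted p up to 0.0761). In sham cells Gpnmb, a glycoprotein induced under lysosomal stress, was at -1.20 ± 0.14 in KO against wt, and Sqstm1, the autophagy receptor p62, at -1.17 ± 0.14. After paraquat Gpnmb was at -0.93 ± 0.14 (adjusted p = 0.0108), a call lost without wt paraquat 1 or KO paraquat 3 (adjusted p up to 0.123). Of 11 cathepsin inhibitors, 6 rose and 1 fell in wt and 3 rose and 1 fell in KO cells. In KO against wt sham cells 5 were higher and 1 lower (54.5% changed, against 10.2% of all genes). Some of the 11 lay below the array medians, such as Cstdc5 at 12 to 26 and Serpinb3a at 8 to 31. The brightness filter kept 7, with 4 higher and 2 lower in wt and 3 higher and 1 lower in KO cells. Between sham groups 3 of the 7 were higher and 1 lower. Stfa3, a stefin that inhibits cysteine cathepsins, was 2.95 ± 0.21 higher after paraquat in wt cells and 2.74 ± 0.21 higher in KO than wt sham cells; stefin A genes lie in a family of near-identical copies, so their probe sets may share signal.

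**Figure D5:**
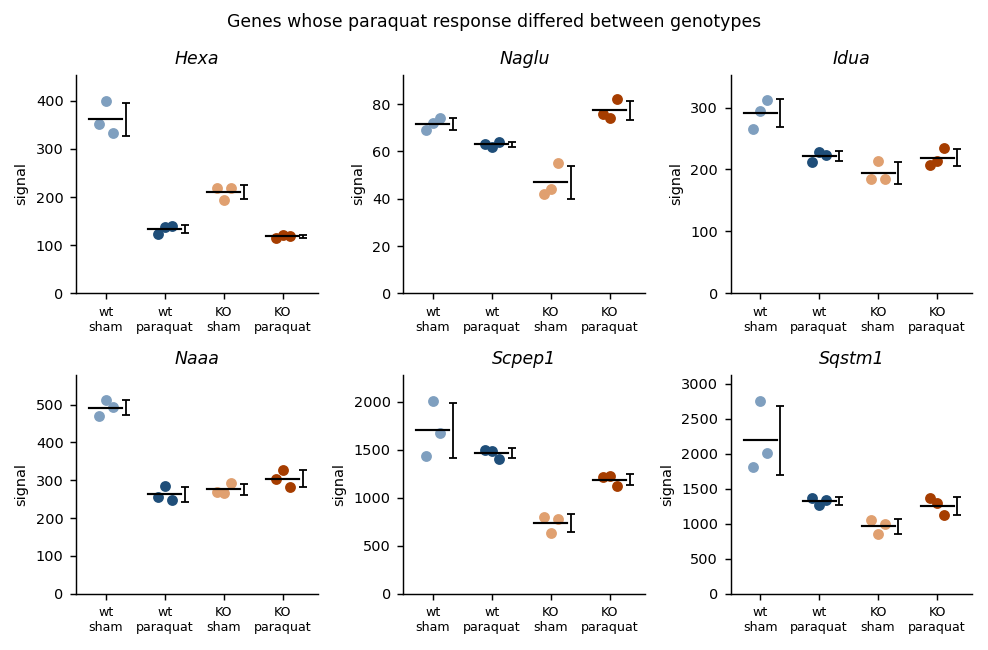
Signal (vertical axis, linear RMA scale from 0) of Hexa, Naglu, Idua, Naaa, Scpep1 and Sqstm1 in the 3 arrays of each group, with the mean as a line and the SD as a bar. In each gene shown the wt sham arrays lie above the KO sham arrays, and the step from sham to paraquat differs between the genotypes. All genes drawn had a KO response minus wt response above 0. Cd68, Stfa1 and Stfa3, which passed with differences of -0.5871, -1.525 and -2.512, are not drawn.

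Marker genes of other cell types and states were read in the same arrays, each list with members that moved and members that did not. Their counts stand beside 14.9% of all genes higher and 14.3% lower after paraquat in wt cells, and 14.5% and 12.6% in KO cells. Among the brighter genes 50.7% changed in wt and 47.6% in KO cells. Of 7 keratinocyte markers 3 fell in wt cells and 2 in KO cells, and 0 rose, with sums of 41357 to 43012 in wt sham, 37306 to 38283 in wt paraquat, 39588 to 41093 in KO sham and 37439 to 39210 in KO paraquat arrays. Of 10 suprabasal markers 6 rose and 3 fell in wt cells, and 7 rose and 3 fell in KO cells. Their sums were 4128 to 4941 in wt sham, 7988 to 8931 in wt paraquat, 3113 to 3522 in KO sham and 5914 to 7037 in KO paraquat arrays. Ivl, the cornified envelope precursor involucrin, rose by 2.73 in wt and 2.32 in KO cells, while Krt1, an early suprabasal keratin, fell by 1.40 and fell by 1.62, and Krt10 and Dsg1a also fell in both.

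In the other lists the rise of the sum came mostly from 1 gene each. Leukocyte markers summed to 333 to 361 in all sham and 492 to 576 in all paraquat arrays, of which Cd14 accounts for means of 53.3 to 229 in wt and 56.7 to 234 in KO cells. Of the 11, 4 rose and 0 fell in wt cells and 2 rose and 1 fell in KO cells, with a KO median of -0.0053, and Ptprc, the defining leukocyte phosphatase, read 13 to 21 in all arrays. Melanocyte markers summed to 289 to 372 in all sham and 663 to 773 in all paraquat arrays, with Mlana going from 64.3 to 379 in wt and 69.7 to 358 in KO cells, and 3 of 8 rose in each genotype. Endothelial markers summed to 218 to 252 in sham and 349 to 498 in paraquat arrays. Kdr went from 53.3 to 248 in wt and 58.0 to 149 in KO cells, while Cdh5 read 28 to 36 in all arrays. Of the 7 endothelial markers 3 rose and 0 fell in each genotype, 2 of them by at least 1.5-fold. Fibroblast markers summed to 324 to 391 in sham and 351 to 455 in paraquat arrays, and 1 of 9, Pdgfra, rose in each genotype. No marker was at 0. The part of these in the results above was not tested.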

How the data were processed

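Total RNA of 12 cultures was hybridised to Affymetrix arrays, and the authors deposited 1 intensity per probe set, which per the submitters' processing notes came from RMA run in the Affymetrix Expression Console, version 1.3.1.187. The deposited intensities were whole numbers from 3 to 17695, which were read as linear signals, so their log2 was taken here. The array annotation gave 1 gene symbol to 23521 of 41345 probe sets, several to 1814 and none to 16010. The probe set with the highest mean stood for a gene. limma 3.58.1 in R 4.3.3 fitted 4 group means to all 12 arrays, without a block, and p-values were adjusted by Benjamini-Hochberg over 22180 genes, with a threshold of 0.05; the code was tested on simulated data. RMA equalises the distributions of the arrays, so a change common to all genes cannot be seen, and precision is limited by 3 arrays per group. No order was read between signals of different genes; marker sums add signals and follow the brightest probe sets. The members and lists were chosen with earlier results of these data known, so their counts are descriptions. Values in every array were given for members changed at least 1.5-fold in any comparison and for Lamp1, Lamp2, Ctsb, Ctsd, Tfeb and Tfe3. Of the other lists, a few genes per comparison were named as examples. Alternatives varied scaling, filtering, probe set choice, the variance model, the arrays used and a replicate block.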

Additional observations from a re-analysis of the deposited data

Results flagged for a closer look

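The response to paraquat differed between the genotypes, by a test of the difference itself in limma, for the following genes. They were 2 of the 34 lysosome genes (5.88%) and 7 of the 134 genes of the further lists (5.22%). Of all genes 2.29% passed this test, and of the 12961 brighter genes 6.9%, so these shares do not set the lists apart. The KO response minus the wt response was 0.6133 log2 for Hexa (adjusted p = 0.0261) and 0.9128 for Naglu (adjusted p = 0.00444). Among the further hydrolases it was 0.5643 for Idua (adjusted p = 0.0408), 1.042 for Naaa (adjusted p = 0.000745) and 0.9074 for Scpep1 (adjusted p = 0.0158). It was 1.09 for Sqstm1 (adjusted p = 0.0134), which fell in wt cells, from a mean signal of 2192 to 1325, and had means of 965 and 1261 in KO cells. Cd68 gave -0.5871 (adjusted p = 0.0363), and the stefins Stfa1 and Stfa3 gave -1.525 (adjusted p = 0.0214) and -2.512 (adjusted p = 0.000798). Naglu, Naaa, Scpep1, Sqstm1 and Stfa3 passed under every alternative tried, while the calls of Idua, Cd68 and Stfa1 were lost under 11, 10 and 8 of 21 and that of Hexa under 6. The stefin A genes are near-identical copies whose probe sets may share signal.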

How the results depend on the processing

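No value changed its direction past the threshold under the alternatives. The count of lysosome genes lower in KO sham than wt sham cells, 8, was 2 with only the arrays of those groups and 3 without wt sham 2 and KO paraquat 3, a choice made after the data were seen; leaving out 1 array gave 3 to 8. The count for the difference between responses, 2, was 1 without those arrays and 1 to 2 with 1 array left out. Leaving out 1 array gave 17 to 18 for the wt response, 16 to 19 for the KO response and 0 to 0 for KO against wt paraquat. With the replicate block the 5 counts were 17, 18, 8, 0 and 2. Replicate numbers did not pair the arrays: deviations of 18 same-numbered pairs correlated between -0.0727 and 0.0902, and 4 of 12 arrays correlated best with their own number. Calls kept under every alternative were 15 of 18, 14 of 19, 2 of 8 and 1 of 2; the cause of each loss was not tested. Among the further lists, counts in KO against wt sham moved by over 1.5 times for pump subunits (1, then 0 without those arrays and 3 with the filter on dim genes), hydrolases (5, then 3 without those arrays) and membrane proteins (3, then 1 and 5). Other comparisons moved as well. For the difference between responses, the filter took pump subunits and delivery from 0 to 2 and regulators from 1 to 2. Without those arrays membrane proteins went from 1 to 0 and cathepsin inhibitors from 2 to 1. For KO against wt paraquat, membrane proteins went from 0 to 1 with the filter and regulators from 1 to 0 without those arrays. Dim probe sets such as Tfeb and Ctss limit what can be seen.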
